A study of Homo sapiens with 12 samples.

Results

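The ATF4 programme is described here through 37 named genes of amino acid synthesis, stress response and transfer RNA charging, in a breast epithelial line arrested with p21 or p16. The genes were taken from the count files by gene name. All 37 were found among 57133 gene names, of which 30296 had a count in any library, and 34 of them were among the 14504 genes that passed the filter on low counts and were tested. They comprise 4 transcription factors, 5 stress effectors, 10 enzymes of asparagine, serine, one-carbon and proline metabolism, and 18 cytosolic aminoacyl-tRNA synthetases.

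The cells were MCF10-A, an established non-tumorigenic line of human breast epithelium, with a transgene under a doxycycline-inducible promoter. The transgene coded for the fluorescent protein mVenus joined to p21, for mVenus joined to p16, or for mVenus alone. The p21 and p16 proteins are inhibitors of cyclin-dependent kinases and arrest the cell cycle. The 4 groups, each of 3 biological replicates per the series' design text, were p21 cells, p16 cells given Torin2 (an inhibitor of the mTOR kinase), p16 cells and mVenus cells. All 12 cultures were seeded at 150000 cells per well and received 50 ng/ml doxycycline, first 20 hours after seeding, so the mVenus group carries the inducer and the fluorescent tag as well. Torin2 at 100 nM was added from 24 hours after doxycycline to p16 cells only, DMSO being the vehicle named for the rest, medium was renewed at 48-hour intervals, and RNA was taken after 5 days. There was no group of p21 or mVenus cells with Torin2, and the labels do not say whether a line was 1 clone. No culture went without doxycycline, so effects of an induced protein cannot be told apart from differences between the lines. Each well is a bulk sample, so that fewer cells of a kind and less RNA per cell cannot be told apart.

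ATF4 is the effector of the integrated stress response. Kinases that sense uncharged transfer RNA, unfolded protein in the endoplasmic reticulum, double-stranded RNA or haem shortage phosphorylate the initiation factor eIF2, which slows general translation but favours translation of the ATF4 messenger. The ATF4 protein, paired with C/EBP factors, then binds composite elements and raises transcription of amino acid transporters, biosynthetic enzymes and synthetases. In growing cells the kinase complex mTORC1 also raises ATF4 output. As ATF4 is set largely by translation, its messenger level does not measure the amount of its protein.

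The composite element has the core TGATGNAA, which was searched on both strands of RefSeq promoter windows (GRCh38.p14) running 250 bases before to 50 bases after a transcription start. A window was found for 29 of the 37 genes. The core occurred in 10 of these 29 genes (34.5%), against 1214 of 27167 genes with a window (4.47%), and in 1266 of 34943 windows (3.62%). Its variant TGATGCAA, read as TTGCATCA on the other strand and contained in the longer search, occurred in 7 of the 29 genes (24.1%), against 295 of all genes (1.09%) and 304 windows (0.87%). The 30 bases around the match are given below for 8 of the genes in the direction of transcription, with the match in capitals, because they include a stress-induced factor, an amino acid enzyme and synthetases that did not behave alike.
ATF3: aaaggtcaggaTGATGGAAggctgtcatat
ASNS: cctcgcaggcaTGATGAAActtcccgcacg
CARS: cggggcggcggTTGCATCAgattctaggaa
GARS: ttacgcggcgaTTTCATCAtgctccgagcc
IARS: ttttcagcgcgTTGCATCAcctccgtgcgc
MARS: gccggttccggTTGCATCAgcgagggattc
NARS: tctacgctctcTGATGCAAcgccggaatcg
TARS: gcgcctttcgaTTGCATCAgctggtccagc
These stretches lie at chr1:212565205-212565234, chr7:30594834-30594863, chr12:57488053-57488082 and chr5:33440956-33440985 on the plus strand and at chr7:97872458-97872487, chr11:3057407-3057436, chr9:92293692-92293721 and chr18:57621804-57621833 on the minus strand. The capitals begin 191 bases before the start in ATF3 and 68 in ASNS, while in CARS, GARS, IARS, MARS, NARS and TARS they lie within 33 bases of it. A match is a description of the letters and not evidence of binding.

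Libraries held 13168749 to 18321114 counts, and replicates of a group correlated across genes with r of 0.992 or more. Levels are counts normalised to library size (CPM) scaled by TMM, and the 37 genes took 0.399% to 0.472% of all counts. CDKN2A, the gene of p16, had 0 counts in every library, so the counts give no check of the p16 transgene, whose reads need not be counted under that gene. CDKN1A, the gene of p21, averaged 889 ± 16.5 CPM in p21, 259.5 ± 17.0 in p16 with Torin2, 570.3 ± 30.1 in p16 and 712 ± 13.0 in mVenus (SD, n = 3 each). All 10 epithelial markers were tested. Their summed level was 10696 to 11070 CPM in p21, 10015 to 10389 in p16 with Torin2, 17528 to 18332 in p16 and 9490 to 9943 in mVenus. Of the 10, 8 were higher in every p16 library than in any mVenus library and 1 overlapped. LAMB3 was lower in p16 (696 ± 44.5 CPM) than in mVenus (1956 ± 78.0 CPM, SD, n = 3 each). Of all 14504 tested genes, 4614 were higher and 4948 lower without overlap between these groups. Of 4 leukocyte markers, CD3E and TYROBP had no counts and PTPRC had 1 in all, while CD14, which made up the rest, had 20.9 to 24.4 CPM in p21, 13.5 to 17.0 in p16 with Torin2, 34.6 to 38.5 in p16 and 12.8 to 17.6 in mVenus. The 4 fibroblast markers summed to 111 to 117 CPM in p21, 5.49 to 5.91 in p16 with Torin2, 6.97 to 7.37 in p16 and 20.1 to 20.5 in mVenus. Most of the p21 sum was DCN (109 ± 2.24 CPM in p21 and 10.7 ± 0.988 CPM in mVenus, SD, n = 3 each), whereas COL1A1 was lower in p21 (3.86 ± 0.761 CPM) than in mVenus (9.15 ± 0.878 CPM), PDGFRB was under 1 CPM in every library and COL1A2 had 1 count in all. Mitochondrially encoded transcripts took 6.08% to 6.98% of counts in p21, 5.66% to 6.71% in p16 with Torin2, 6.33% to 6.91% in p16 and 3.85% to 3.91% in mVenus. What part these differences have in the results that follow was not tested.

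Calls were made with edgeR's quasi-likelihood test at a Benjamini-Hochberg adjusted p under 0.05 over all genes tested. In each of the 5 comparisons most tested genes were called, so each count is set beside the share of all genes called. Of the 34 tested genes, 17 rose and 7 fell in p21 relative to mVenus (70.6%), while 56.4% of all genes were called, 28.2% higher and 28.3% lower. In p16 relative to mVenus 10 rose and 14 fell (70.6%, against 63.7% of all genes, 30.9% higher and 32.8% lower). In p16 with Torin2 relative to p16 10 rose and 14 fell (70.6%, against 59.3%, 30.3% higher and 29.0% lower). In p16 with Torin2 relative to mVenus 13 rose and 19 fell (94.1%, against 67.4%, 31.2% higher and 36.1% lower). Between p21 and p16, 19 were higher and 9 lower in p21 (82.4%, against 54.3%, 27.2% in each direction). Comparisons that share libraries are not independent of each other. Changes below are log2 fold changes ± standard error, and p-values are those of edgeR. The standard error was worked back from the test, as the size of the change divided by the square root of its F statistic. For large changes at low counts, such as PHGDH in p16, it can be smaller than counting error alone.

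Most of these changes were small. The median log2 fold change of the 34 genes was 0.12 in p21, -0.02 in p16 and -0.22 in p16 with Torin2, each relative to mVenus, against -0.00, -0.00 and -0.03 over all genes. It was -0.12 in p16 with Torin2 relative to p16 and 0.23 in p21 relative to p16, against 0.02 and -0.01. With a change of at least 1.5-fold required as well, 8 of the 34 rose in p21 relative to mVenus, where 11.0% of all genes rose and 11.4% fell. None of the 34 fell by that much in p21 in edgeR, with or without p adjustment, or in DESeq2 (0 in each). In p16, 2 rose and 3 fell relative to mVenus by that rule (all genes 12.9% and 15.9%), and with Torin2 1 rose and 3 fell relative to p16 (12.1% and 12.1%). In p16 with Torin2 relative to mVenus 2 rose and 8 fell (14.8% and 17.6%). In p21 relative to p16, 8 rose (11.2% of all genes) and 0 fell (9.38%), again 0 without p adjustment and in DESeq2.

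**Figure D1:**
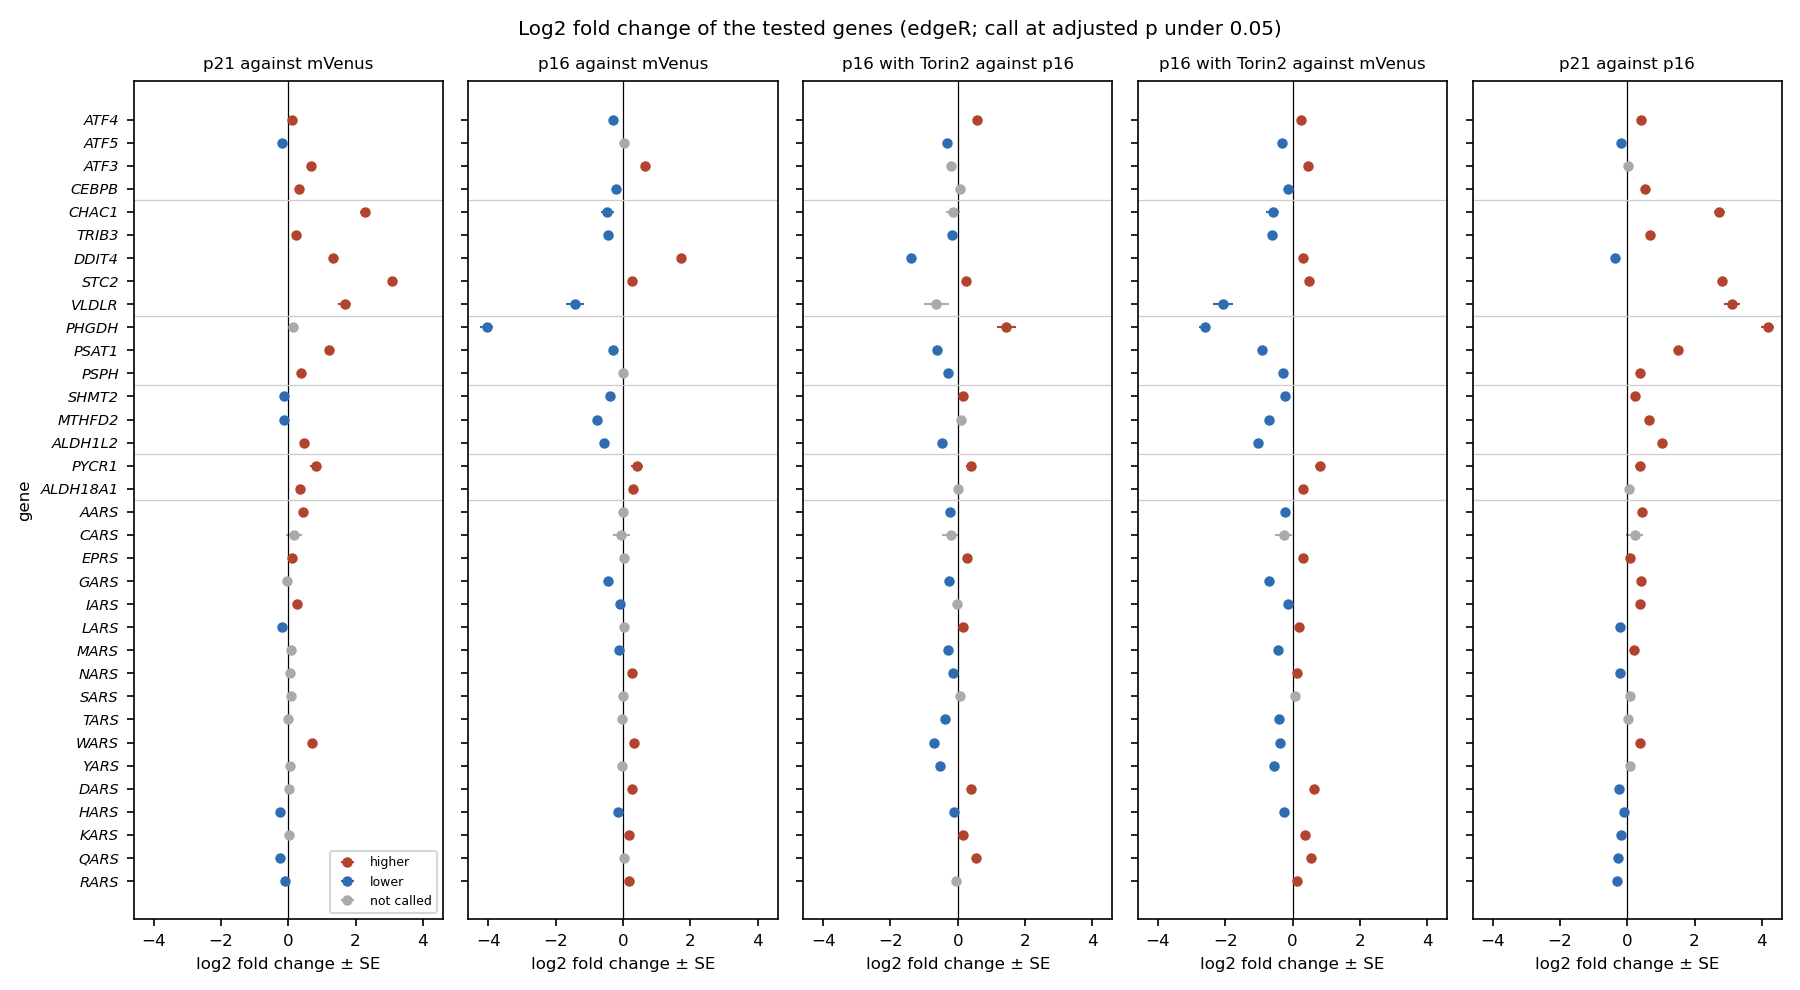
Log2 fold change with its standard error (x axis) of each of the 34 tested genes (y axis, ordered by role) in 5 comparisons, coloured by the edgeR call at adjusted p under 0.05. In p21 against mVenus the 5 stress effectors lie to the right of 0, from 0.23 to 3.07, while the synthetases stay between -0.26 and 0.71; PHGDH is the farthest to the left in p16 against mVenus, at -4.05.

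Levels differed widely between genes. Per kilobase of exon and averaged over the 12 libraries, the glutamyl-prolyl synthetase EPRS was highest (102.4 CPM per kb), followed by CEBPB (92.4), ATF4 (83.2) and RARS (60.9). At the other end stood PHGDH (0.776), CARS (0.310), VLDLR (0.191), ASNS (0.104), VARS (0.0926) and SHMT1 (0.0166). Asparagine synthetase, ASNS, cytosolic serine hydroxymethyltransferase, SHMT1, and valyl-tRNA synthetase, VARS, did not pass the filter on low counts, and no test was made of them.

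The 3 untested genes need care, since VARS serves every dividing cell and ASNS shares most of its coding bases with another gene. ASNS had 0.587, 0.805 and 0.637 CPM in p21, 0.521, 0.452 and 0.131 CPM in p16 with Torin2, 0.561, 0.461 and 0.406 CPM in p16 and 0.262, 0.511 and 0.218 CPM in mVenus. In GENCODE 29, 96.1% of the coding bases of ASNS (chromosome 7, 97852118 to 97872542, GRCh38) also belong to another gene, mainly AC079781.5, and reads over more than 1 gene were left unassigned by the counting as its headers record it. Of all its exonic bases 44.6% are shared, so reads over the rest could be counted. The counts of ASNS therefore leave out most of its coding sequence and say little about the level of its messenger. VARS had 0.147, 3.71 and 0.255 CPM in p21, 0.391, 0.129 and 0.459 CPM in p16 with Torin2, 0.499, 0.527 and 0.135 CPM in p16 and 0.157, 0.292 and 0.0545 CPM in mVenus, with 1 p21 library above the other 11. None of its exonic bases were shared, but 33 of the 35 coding genes within 150000 bases of it were also under 1 CPM. CARS, tested but low, had 4 of 6 such neighbours under 1 CPM. That does not set CARS apart, since ATF4 and GARS, with far higher counts, each had 4 of 7. The cause of the low counts of VARS and CARS was not tested. SHMT1 had 5 counts over the 3 p21 libraries, 6 in p16 with Torin2, 6 in p16 and 6 in mVenus.

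ATF4 messenger changed little in p21, fell in p16 and rose with Torin2. ATF4 had 222, 218 and 222 CPM in p21, 239, 246 and 248 CPM in p16 with Torin2, 172, 164 and 162 CPM in p16 and 205, 212 and 201 CPM in mVenus. The 3 Torin2 libraries were the highest of the 12 and the 3 p16 libraries the lowest, and no groups overlapped. ATF4 (chromosome 22, 39519695 to 39522685, GRCh38 as all coordinates of genes here) was 1.47-fold higher in p16 with Torin2 than in p16 (change 0.56 ± 0.04 log2, adjusted p = 4.49e-11 by edgeR) and 1.19-fold higher than in mVenus (change 0.25 ± 0.04 log2, adjusted p = 3.82e-06). It was 1.24-fold lower in p16 than in mVenus (change -0.31 ± 0.04 log2, adjusted p = 2.43e-07). In p21 it was 1.07-fold higher than in mVenus (change 0.10 ± 0.04 log2, adjusted p = 0.0235), a call that ended without mVenus replicate 1 or 3 or p21 replicate 1 or 3 (adjusted p 0.00422 to 0.0882 over 18 alternatives).

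The other 3 factors each differed from ATF4 in at least 1 comparison. ATF3, a stress-induced repressor and activator of the same family, was higher in both arrested groups. ATF3 had 11.4, 12.3 and 12.0 CPM in p21, 10.6, 10.3 and 9.51 CPM in p16 with Torin2, 10.7, 11.8 and 12.6 CPM in p16 and 7.34, 6.72 and 7.95 CPM in mVenus. All 9 libraries with an induced inhibitor lay above the 3 mVenus libraries, by 1.62-fold in p21 (change 0.69 ± 0.10 log2, adjusted p = 3.14e-06) and 1.58-fold in p16 (change 0.66 ± 0.10 log2, adjusted p = 4.45e-06). CEBPB, a C/EBP partner of ATF4, was highest in p21. CEBPB had 234, 218 and 224 CPM in p21, 163, 162 and 166 CPM in p16 with Torin2, 155, 155 and 154 CPM in p16 and 175, 189 and 175 CPM in mVenus. The p21 libraries stood apart from the rest, 1.26-fold above mVenus (change 0.33 ± 0.04 log2, adjusted p = 3.03e-07), while p16 was 1.16-fold below mVenus (change -0.21 ± 0.04 log2, adjusted p = 8.32e-05). These are the directions of ATF4, whereas in p16 with Torin2 CEBPB was lower than in mVenus (change -0.13 ± 0.04 log2, adjusted p = 0.00525) and ATF4 was higher. That CEBPB call ended when no filter on low counts was used (adjusted p 0.00338 to 0.0616 over 18 alternatives), and its Torin2 difference from p16 did not pass (change 0.08 ± 0.04 log2, adjusted p = 0.0924) except with upper quartile scaling (adjusted p = 0.0206). ATF5, a related factor whose messenger is likewise translated under stress, was lowest with Torin2. ATF5 had 53.2, 52.1 and 52.3 CPM in p21, 46.7, 49.6 and 47.7 CPM in p16 with Torin2, 64.4, 57.4 and 58.2 CPM in p16 and 59.7, 58.0 and 60.1 CPM in mVenus. It was 1.25-fold lower in p16 with Torin2 than in p16 (change -0.32 ± 0.05 log2, adjusted p = 1.55e-05) and 1.13-fold lower in p21 than in mVenus (change -0.18 ± 0.05 log2, adjusted p = 0.00525), the p21 call ending when no filter on low counts was used (adjusted p = 0.0652, 0.00112 to 0.0652 over 18 alternatives). So 3 factors rose and 1 fell in p21 relative to mVenus (all genes 28.2% and 28.3%). With Torin2 relative to p16, 1 rose and 1 fell (all genes 30.3% and 29.0%).

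**Figure D2:**
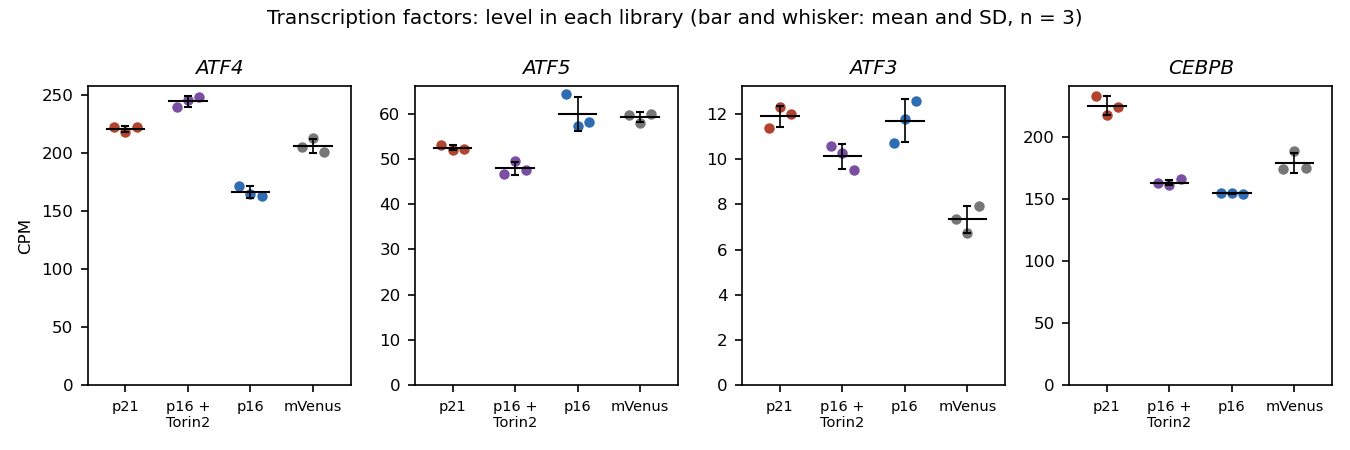
Level of the 4 transcription factors in TMM-scaled CPM (y axis, linear from 0) in each library of the 4 groups (x axis); points are libraries, bars and whiskers the mean and SD of 3. ATF4 is highest in p16 with Torin2 (239 to 248 CPM) and lowest in p16 (162 to 172), CEBPB is highest in p21, and ATF3 is lowest in mVenus.

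The stress effectors carried the largest changes in p21. All 5 rose relative to mVenus, where 28.2% of all genes rose and 28.3% fell. Of the 5, 0 were lower in edgeR, at an unadjusted p under 0.05 or in DESeq2, and their median log2 fold change was 1.68. CHAC1 degrades glutathione and is a sensitive target of ATF4 with ATF3 and C/EBP factors. CHAC1 had 15.2, 14.5 and 18.4 CPM in p21, 2.61, 1.75 and 2.23 CPM in p16 with Torin2, 2.12, 2.96 and 2.10 CPM in p16 and 3.30, 2.85 and 3.70 CPM in mVenus. The p21 libraries were all above the other 9, which lay between 1.75 and 3.70 CPM. CHAC1 (chromosome 15, 40952962 to 40956519) was 4.83-fold above mVenus in p21 (change 2.27 ± 0.14 log2, adjusted p = 2.70e-11) and 6.68-fold higher than in p16 (change 2.74 ± 0.16 log2, adjusted p = 5.96e-12). Relative to mVenus it was 1.38-fold lower in p16 (change -0.47 ± 0.19 log2, adjusted p = 0.0393) with overlapping libraries, and that call ended in 7 of 18 alternatives, among them without mVenus replicate 1 or 3 or p16 replicate 1 or 3 (adjusted p 0.0134 to 0.148).

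STC2, stanniocalcin 2, is a secreted glycoprotein induced by stress of the endoplasmic reticulum. STC2 had 176, 172 and 198 CPM in p21, 30.6, 28.6 and 32.1 CPM in p16 with Torin2, 27.5, 26.3 and 23.6 CPM in p16 and 22.1, 20.3 and 22.3 CPM in mVenus. Again the p21 libraries stood far above all others. STC2 (chromosome 5, 173314713 to 173329503) was 8.41-fold above mVenus in p21 (change 3.07 ± 0.07 log2, adjusted p = 9.14e-19) and 1.19-fold higher in p16 (change 0.26 ± 0.08 log2, adjusted p = 0.00837). Torin2 added 1.18-fold over p16 (change 0.23 ± 0.08 log2, adjusted p = 0.0127), a call that ended without p16 replicate 3 or Torin2 replicate 3 (adjusted p 0.00544 to 0.0716 over 18 alternatives). VLDLR, a lipoprotein receptor that ATF4 induces in liver cells under stress, was expressed at low levels. VLDLR had 4.77, 4.46 and 5.10 CPM in p21, 0.326, 0.388 and 0.328 CPM in p16 with Torin2, 0.561, 0.395 and 0.677 CPM in p16 and 1.31, 1.39 and 1.74 CPM in mVenus. Its groups fell in the order p21, mVenus, p16 and p16 with Torin2 without overlap. It stood 3.20-fold higher in p21 than in mVenus (change 1.68 ± 0.19 log2, adjusted p = 2.27e-07) and 2.70-fold lower in p16 (change -1.44 ± 0.27 log2, adjusted p = 0.000106). The difference between p16 with Torin2 and p16 did not pass (change -0.64 ± 0.37 log2, adjusted p = 0.214).

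DDIT4, also called REDD1, restrains mTORC1 and responds to ATF4, glucocorticoid and low oxygen; the culture medium of all groups held hydrocortisone. DDIT4 had 154, 143 and 136 CPM in p21, 64.2, 69.7 and 80.6 CPM in p16 with Torin2, 207, 187 and 166 CPM in p16 and 51.5, 61.3 and 59.2 CPM in mVenus. It was the 1 effector that was higher in p16 than in p21, and the Torin2 libraries came down to just above the mVenus range. DDIT4 (chromosome 10, 72273920 to 72276036) was 2.53-fold above mVenus in p21 (change 1.34 ± 0.08 log2, adjusted p = 2.14e-11), 3.27-fold higher in p16 (change 1.71 ± 0.08 log2, adjusted p = 2.25e-13) and 2.61-fold lower in p16 with Torin2 than in p16 (change -1.39 ± 0.08 log2, adjusted p = 8.47e-12). In GENCODE 29, 41.2% of its exonic bases are shared, mainly with the antisense gene DDIT4-AS1. Counting without strand leaves reads over both genes unassigned, so the DDIT4 reads there are lost. TRIB3, a pseudokinase that feeds back on ATF4, changed in the direction of ATF4 in p21 and p16 but not with Torin2. TRIB3 had 64.6, 61.7 and 62.4 CPM in p21, 35.0, 33.4 and 36.2 CPM in p16 with Torin2, 42.8, 39.1 and 35.3 CPM in p16 and 51.5, 57.0 and 52.7 CPM in mVenus. The p21 libraries were highest, mVenus next and both p16 groups lowest. TRIB3 was 1.17-fold higher in p21 (change 0.23 ± 0.06 log2, adjusted p = 0.00216) and 1.37-fold lower in p16 (change -0.45 ± 0.06 log2, adjusted p = 2.08e-06) than in mVenus. The Torin2 difference from p16 was 1.12-fold lower (change -0.17 ± 0.07 log2, adjusted p = 0.0359) with overlapping libraries, and the call ended in 7 of 18 alternatives, among them upper quartile scaling and without p16 replicate 1 or 2 or Torin2 replicate 1 or 2 (adjusted p 0.00296 to 0.228).

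**Figure D3:**
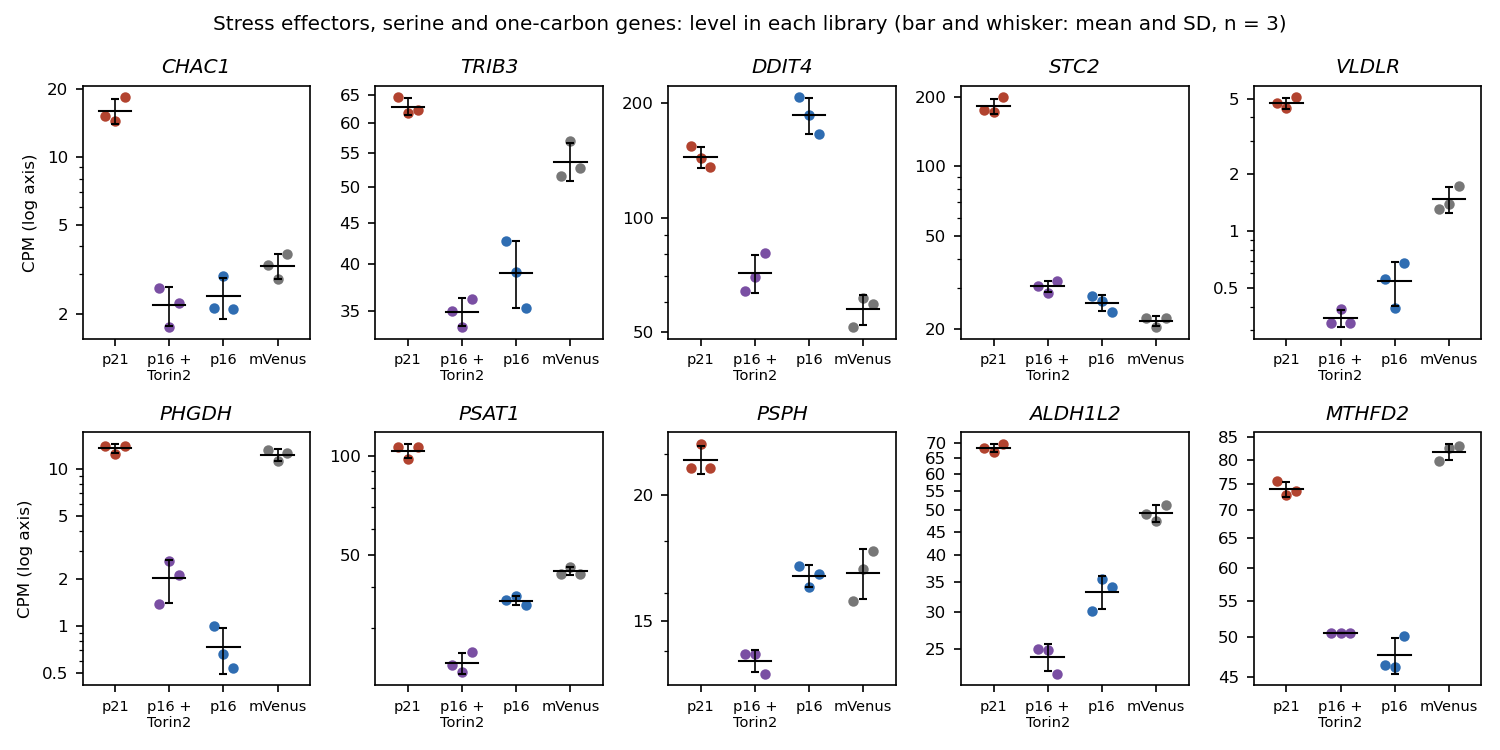
Level of the 5 stress effectors (upper row) and of 5 serine and one-carbon genes (lower row) in TMM-scaled CPM (y axes, log scale, a range of its own in each panel) in each library of the 4 groups (x axis); bars and whiskers are the mean and SD of 3 libraries. CHAC1, STC2, VLDLR and PSAT1 are highest in p21, DDIT4 in p16 (166 to 207 CPM), and PHGDH is at 0.542 to 0.998 CPM in p16 against 11.2 to 13.2 CPM in mVenus.

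Of the 34 tested genes, PHGDH of the serine pathway differed the most between p21 and p16. PHGDH, PSAT1 and PSPH catalyse the successive steps from 3-phosphoglycerate to serine. PHGDH had 14.0, 12.5 and 14.1 CPM in p21, 1.37, 2.59 and 2.10 CPM in p16 with Torin2, 0.998, 0.659 and 0.542 CPM in p16 and 13.2, 11.2 and 12.6 CPM in mVenus. The p21 and mVenus libraries overlapped, and both p16 groups lay far below them. PHGDH (chromosome 1, 119648411 to 119744226) was 16.6-fold lower in p16 than in mVenus (change -4.05 ± 0.19 log2, adjusted p = 2.16e-13) and 2.71-fold higher in p16 with Torin2 than in p16 (change 1.44 ± 0.28 log2, adjusted p = 0.000149), which left it 6.11-fold below mVenus (change -2.61 ± 0.16 log2, adjusted p = 1.02e-11). The p16 level rests on 34 counts over 3 libraries. In p21 PHGDH did not differ from mVenus beyond the spread (change 0.13 ± 0.12 log2, adjusted p = 0.372), and it was 18.1-fold higher than in p16 (change 4.18 ± 0.19 log2, adjusted p = 2.32e-13).

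PSAT1, the transaminase of the second step, moved in another pattern. PSAT1 had 107, 98.0 and 107 CPM in p21, 23.1, 22.0 and 25.3 CPM in p16 with Torin2, 36.4, 37.5 and 35.1 CPM in p16 and 43.9, 46.0 and 43.8 CPM in mVenus. The p21 libraries were the highest, mVenus and p16 followed, and the Torin2 libraries were the lowest, with no overlap. PSAT1 (chromosome 9, 78297143 to 78330093) was 2.33-fold above mVenus in p21 (change 1.22 ± 0.05 log2, adjusted p = 3.47e-14), 1.22-fold lower in p16 (change -0.29 ± 0.06 log2, adjusted p = 0.000159), and 1.55-fold lower in p16 with Torin2 than in p16 (change -0.63 ± 0.06 log2, adjusted p = 3.80e-08). So with Torin2 PHGDH rose and PSAT1 fell relative to p16. PSPH, the phosphatase of the last step, shared the PSAT1 order at smaller size. PSPH had 21.3, 22.5 and 21.3 CPM in p21, 13.9, 13.9 and 13.3 CPM in p16 with Torin2, 17.0, 16.2 and 16.7 CPM in p16 and 15.7, 16.9 and 17.6 CPM in mVenus. It stood 1.30-fold higher in p21 than in mVenus (change 0.38 ± 0.07 log2, adjusted p = 5.23e-05) and 1.21-fold lower in p16 with Torin2 than in p16 (change -0.28 ± 0.07 log2, adjusted p = 0.00213), while p16 and mVenus overlapped (change -0.01 ± 0.07 log2, adjusted p = 0.953). PSPH has a near-identical pseudogene copy, PSPHP1, so that its counts are uncertain.

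The mitochondrial one-carbon enzymes fell in p16 relative to mVenus. SHMT2 splits serine into glycine and a one-carbon unit, MTHFD2 oxidises that unit, and ALDH1L2 releases it as carbon dioxide with NADPH. MTHFD2 had 75.7, 72.9 and 73.6 CPM in p21, 50.6, 50.5 and 50.6 CPM in p16 with Torin2, 46.5, 46.2 and 50.2 CPM in p16 and 79.8, 82.5 and 83.0 CPM in mVenus. Both p16 groups were below every p21 and mVenus library. MTHFD2, which shares 33.2% of its exonic bases with SLC4A5, was 1.72-fold lower in p16 than in mVenus (change -0.78 ± 0.05 log2, adjusted p = 4.59e-12), and the Torin2 difference from p16 did not pass (change 0.09 ± 0.05 log2, adjusted p = 0.121). ALDH1L2 had 68.5, 67.0 and 69.7 CPM in p21, 25.0, 24.9 and 22.1 CPM in p16 with Torin2, 30.2, 35.5 and 34.1 CPM in p16 and 49.1, 47.4 and 51.4 CPM in mVenus. The groups did not overlap, with p21 highest and the Torin2 libraries lowest. ALDH1L2 was 1.38-fold higher in p21 (change 0.47 ± 0.06 log2, adjusted p = 4.81e-07) and 1.49-fold lower in p16 (change -0.57 ± 0.06 log2, adjusted p = 7.02e-08) than in mVenus, and a further 1.38-fold lower with Torin2 than in p16 (change -0.47 ± 0.07 log2, adjusted p = 6.09e-06).

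SHMT2 also fell in p16 relative to mVenus, by less than MTHFD2 and ALDH1L2 did. SHMT2 had 87.5, 82.0 and 85.1 CPM in p21, 78.8, 80.3 and 82.0 CPM in p16 with Torin2, 75.1, 71.0 and 68.6 CPM in p16 and 91.2, 93.7 and 94.8 CPM in mVenus. The mVenus libraries were the highest and the p16 libraries the lowest, and between them the p21 and Torin2 libraries met at 82.0 CPM. SHMT2 was 1.30-fold lower in p16 than in mVenus (change -0.38 ± 0.04 log2, adjusted p = 2.33e-07) and 1.12-fold higher in p16 with Torin2 than in p16 (change 0.17 ± 0.05 log2, adjusted p = 0.00336). Against mVenus, both SHMT2 (change -0.14 ± 0.04 log2, adjusted p = 0.0115) and MTHFD2 (change -0.14 ± 0.04 log2, adjusted p = 0.00758) were called lower in p21, but both calls ended in the DESeq2 test and when no filter on low counts was used, and the SHMT2 call also without mVenus replicate 3 or p21 replicate 2 (adjusted p 0.00378 to 0.184 for SHMT2 and 0.00295 to 0.164 for MTHFD2 over 18 alternatives).

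The proline genes rose in both arrested groups. ALDH18A1 makes glutamate semialdehyde, the precursor of proline and ornithine. ALDH18A1 had 133, 131 and 127 CPM in p21, 124, 129.5 and 127 CPM in p16 with Torin2, 129, 126 and 122 CPM in p16 and 104, 97.4 and 103 CPM in mVenus. Every library of the other 3 groups lay above the mVenus range, by 1.29-fold in p21 (change 0.36 ± 0.04 log2, adjusted p = 1.69e-07) and 1.24-fold in p16 (change 0.31 ± 0.04 log2, adjusted p = 1.07e-06), and p21, p16 with Torin2 and p16 overlapped. PYCR1, the mitochondrial reductase that completes proline, was low, at 6.28 ± 1.19 CPM in p21, 6.29 ± 1.05 CPM in p16 with Torin2, 4.79 ± 0.263 CPM in p16 and 3.54 ± 0.391 CPM in mVenus (SD, n = 3 each). It stood 1.75-fold higher in p21 than in mVenus (change 0.81 ± 0.16 log2, adjusted p = 0.000229). Its calls in p16 relative to mVenus (change 0.42 ± 0.17 log2, adjusted p = 0.0326), p16 with Torin2 relative to p16 (change 0.39 ± 0.16 log2, adjusted p = 0.0346) and p21 relative to p16 (change 0.38 ± 0.16 log2, adjusted p = 0.0437) ended in 5, 4 and 8 of 18 alternatives, DESeq2 and several left-out libraries of the groups compared among them (adjusted p 0.0139 to 0.103, 0.0228 to 0.211 and 0.0118 to 0.219). Over the 8 tested enzymes, 7 were higher and 0 lower in p21 than in p16 by edgeR, against 27.2% of all genes in each direction. DESeq2 called 6 higher and 0 lower, and 0 were lower at an unadjusted p under 0.05 in edgeR. The median log2 fold change of the 8 was 0.51. Their summed level with ASNS and SHMT1 was 503.9 ± 10.5 CPM in p21, 328 ± 4.53 in p16 with Torin2, 337 ± 4.30 in p16 and 403 ± 5.95 in mVenus (SD, n = 3 each).

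The synthetases, which join amino acids to transfer RNA, changed far less than the effectors. Their summed level was 3316 ± 36.4 CPM in p21, 3142 ± 45.1 in p16 with Torin2, 3190.3 ± 16.6 in p16 and 3135 ± 28.1 in mVenus (SD, n = 3 each). In p21 relative to mVenus 4 of 17 tested rose and 4 fell (47.1%, against 56.4% of all genes). Over 18 alternatives 4 to 6 rose and 3 to 4 fell, with SARS (adjusted p = 0.0507 by edgeR) called higher in 9 of the 18. The median log2 fold change of the 17 was 0.05. WARS, for tryptophan, which is also induced by interferon, rose the most. WARS had 205, 206 and 204 CPM in p21, 95.6, 99.4 and 93.8 CPM in p16 with Torin2, 161, 149.5 and 164 CPM in p16 and 130.5, 124 and 122 CPM in mVenus. The p21 libraries were highest and the Torin2 libraries lowest, with no overlap between any 2 groups. WARS (chromosome 14, 100333788 to 100376805) was 1.63-fold higher in p21 (change 0.71 ± 0.04 log2, adjusted p = 8.16e-12) and 1.26-fold higher in p16 (change 0.34 ± 0.04 log2, adjusted p = 6.47e-07) than in mVenus, and 1.64-fold lower in p16 with Torin2 than in p16 (change -0.72 ± 0.04 log2, adjusted p = 1.37e-11).

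AARS, for alanine, followed in p21. AARS had 181, 187 and 191 CPM in p21, 118, 115 and 118 CPM in p16 with Torin2, 137, 136 and 138 CPM in p16 and 131, 133 and 146 CPM in mVenus. The p21 libraries stood above all others, the p16 and mVenus libraries overlapped, and the Torin2 libraries were lowest. AARS was 1.36-fold above mVenus in p21 (change 0.45 ± 0.04 log2, adjusted p = 1.36e-08) and 1.17-fold lower in p16 with Torin2 than in p16 (change -0.23 ± 0.04 log2, adjusted p = 0.000142). IARS, for isoleucine, was 1.21-fold above mVenus in p21 (change 0.27 ± 0.04 log2, adjusted p = 1.56e-06), and EPRS was 1.08-fold higher (change 0.11 ± 0.03 log2, adjusted p = 0.00564). Those that fell in p21 relative to mVenus were QARS for glutamine (-0.26 ± 0.05 on the log2 scale), HARS for histidine (-0.24 ± 0.04), LARS for leucine (-0.19 ± 0.04) and RARS for arginine (-0.10 ± 0.03), the RARS call ending without mVenus replicate 1 or p21 replicate 1 and with no filter on low counts (adjusted p 0.00535 to 0.391 over 18 alternatives).

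In p16 relative to mVenus 5 synthetases rose and 4 fell (52.9%, against 63.7% of all genes), with 0 changed by 1.5-fold or more. GARS, for glycine, fell the most. GARS had 196, 194 and 205 CPM in p21, 129, 125 and 122 CPM in p16 with Torin2, 154, 145 and 150.5 CPM in p16 and 215, 201 and 200.1 CPM in mVenus. The p21 and mVenus libraries overlapped, and both p16 groups lay below them. GARS was 1.37-fold lower in p16 than in mVenus (change -0.46 ± 0.04 log2, adjusted p = 3.56e-09) and 1.19-fold lower again in p16 with Torin2 than in p16 (change -0.25 ± 0.04 log2, adjusted p = 2.26e-05). NARS for asparagine (0.27 ± 0.04), DARS for aspartate (0.28 ± 0.05), RARS (0.19 ± 0.03) and KARS for lysine (0.19 ± 0.03) rose with WARS. The falls of HARS (-0.14 ± 0.04), MARS for methionine (-0.13 ± 0.04) and IARS (-0.10 ± 0.04) were small; with no filter on low counts none of the 3 was called, and IARS was not called without mVenus replicate 1 or p16 replicate 3 (adjusted p 0.00130 to 0.130, 0.00359 to 0.189 and 0.0154 to 0.431 over 18 alternatives). TARS for threonine, SARS for serine, YARS for tyrosine, AARS, CARS, EPRS, LARS and QARS did not pass in p16.

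The synthetases are given for Torin2 by whether the protein belongs to the multi-synthetase complex, a particle in mammalian cells that holds EPRS, IARS, LARS, MARS, QARS, RARS, KARS and DARS. Relative to p16, 5 of these 8 rose and 1, MARS, fell, with a median log2 fold change of 0.17. Of the 9 tested synthetases outside the complex, 7 fell and 0 rose by edgeR (0 at an unadjusted p under 0.05, 0 in DESeq2, and up to 1 over 18 alternatives), with a median of -0.23. Over all genes 30.3% rose and 29.0% fell. QARS rose the most. QARS had 93.0, 94.3 and 90.8 CPM in p21, 157, 169 and 163 CPM in p16 with Torin2, 115, 119 and 105 CPM in p16 and 109.5, 117 and 108 CPM in mVenus. The Torin2 libraries stood apart from the rest and the p21 libraries were lowest. QARS was 1.44-fold higher in p16 with Torin2 than in p16 (change 0.53 ± 0.05 log2, adjusted p = 6.22e-09). DARS followed. DARS had 77.1, 77.9 and 80.2 CPM in p21, 128, 125 and 114 CPM in p16 with Torin2, 91.2, 93.7 and 97.5 CPM in p16 and 74.1, 78.5 and 80.7 CPM in mVenus. It was 1.30-fold higher (change 0.38 ± 0.05 log2, adjusted p = 9.18e-07), with the Torin2 libraries above all others. EPRS (0.26 ± 0.03), KARS (0.17 ± 0.03) and LARS (0.17 ± 0.04) also rose, and IARS (-0.02 ± 0.04) and RARS (-0.06 ± 0.03) did not pass.

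Outside the complex, YARS fell next to WARS. YARS had 146, 148 and 149 CPM in p21, 93.4, 99.4 and 97.9 CPM in p16 with Torin2, 144, 140.5 and 132 CPM in p16 and 139.8, 143 and 142 CPM in mVenus. The Torin2 libraries lay below all others, 1.43-fold lower than p16 (change -0.52 ± 0.04 log2, adjusted p = 9.47e-10). TARS had 307 ± 6.77 CPM in p21, 233 ± 4.19 CPM in p16 with Torin2, 302 ± 11.6 CPM in p16 and 307 ± 5.47 CPM in mVenus (SD, n = 3 each), 1.29-fold lower with Torin2 than in p16 (change -0.37 ± 0.04 log2, adjusted p = 1.98e-08). NARS (-0.15 ± 0.04) and HARS (-0.12 ± 0.04) fell by less, the HARS call ending with upper quartile scaling and without p16 replicate 1 (adjusted p 0.00207 to 0.0544 over 18 alternatives). SARS (0.07 ± 0.04) and CARS (-0.21 ± 0.26) did not pass. In p16 with Torin2 relative to mVenus, 6 of the 8 in the complex were higher and 2, IARS and MARS, lower. Of the 9 outside it, 1 was higher and 6 lower, where 31.2% of all genes were higher and 36.1% lower. That comparison shares the Torin2 libraries with the one above. The IARS call ended without mVenus replicate 1 and with no filter on low counts (adjusted p 0.00473 to 0.109 over 18 alternatives). In p21 relative to p16, 3 of the 8 rose and 5 fell, and 3 of the 9 rose and 2 fell (all genes 27.2% in each direction). Of those calls EPRS (change 0.08 ± 0.03 log2, adjusted p = 0.0477) and HARS (change -0.10 ± 0.04 log2, adjusted p = 0.0406) ended in 10 and 12 of 18 alternatives, the EPRS call without Torin2 replicate 2, p16 replicate 1 or 3 or any 1 p21 replicate (adjusted p 0.0243 to 0.192), and the HARS call without p21 replicate 2 or 3, Torin2 replicate 2, p16 replicate 1 or 2 or any 1 mVenus replicate (adjusted p 0.00957 to 0.170). No test of the difference between the 2 classes was made, because the genes and lists were chosen with results of these data known.

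**Figure D4:**
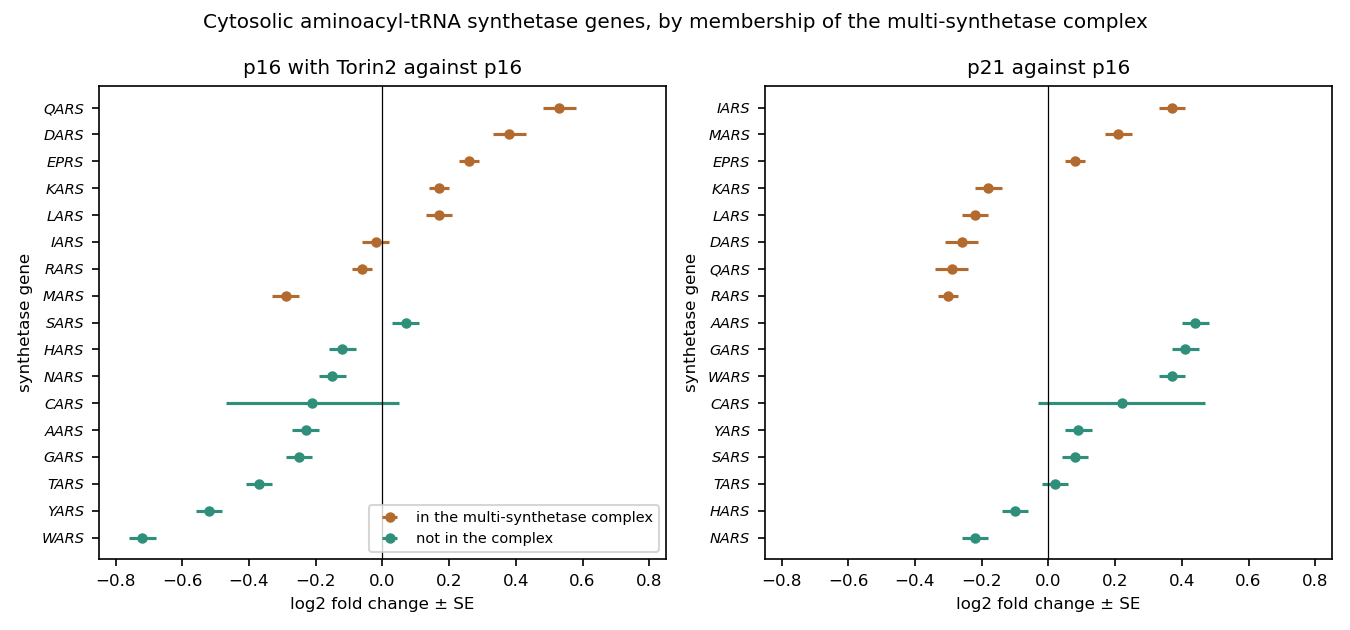
Log2 fold change with its standard error (x axis, the same range in both panels) of 17 synthetase genes (y axis, ordered by class and value), in p16 with Torin2 against p16 (left) and p21 against p16 (right). With Torin2, 5 of the 8 genes of the multi-synthetase complex (upper, orange) were called higher, and 7 of the 9 outside it (lower, green) were called lower.

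The synthetases with and without a promoter match were set side by side as a description. Of the 14 tested synthetases with a promoter window, AARS, CARS, GARS, IARS, MARS, NARS and TARS held TGATGNAA and EPRS, HARS, KARS, QARS, RARS, SARS and WARS did not. In p16 with Torin2 relative to p16 the 7 with a match had log2 fold changes of -0.37 to -0.02, with 0 called higher and 5 lower (median -0.23), and the 7 without ranged from -0.72 to 0.53, with 3 higher, EPRS, KARS and QARS, and 2 lower (median 0.07). In p21 relative to p16, 4 were higher and 1 lower with a match (median 0.22), and 2 higher and 4 lower without (median -0.10). In p21 relative to mVenus the 7 with a match had a median of 0.08 with 2 higher. The 7 without had a median of 0.01 with 2 higher and 3 lower. Of all genes, 30.3% rose and 29.0% fell with Torin2 relative to p16. The shares were 27.2% in each direction in p21 relative to p16, and 28.2% and 28.3% in p21 relative to mVenus. WARS, the synthetase with the largest rise in p21 and the largest fall with Torin2, has no match in its window, and no match says only that these letters are not in those bases. No test was made of the difference between genes with and without a match.

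Upstream of ATF4, 16 genes of eIF2 and its control were tested, namely the kinases and their regulators, the phosphatase partners, 3 subunits of eIF2 and 5 of its exchange factor. Relative to mVenus 6 rose and 2 fell in p21 (50.0%, against 56.4% of all genes), and 6 rose and 3 fell in p16 (56.2%, against 63.7%), so that no more of them were called than of genes at large. EIF2AK2, the kinase PKR activated by double-stranded RNA, rose in p21 (change 1.05 ± 0.07 log2, adjusted p = 7.10e-11) and in p16 (change 1.03 ± 0.07 log2, adjusted p = 7.15e-11), and IMPACT, an inhibitor of the amino acid sensor GCN2, rose in p21 (0.71 ± 0.05) and in p16 (0.58 ± 0.05). PPP1R15B, the constitutive partner of the phosphatase that removes the mark, fell in p21 (-0.74 ± 0.04) and p16 (-0.62 ± 0.04). With Torin2 relative to p16, 3 rose and 8 fell (68.8%, against 59.3%). PPP1R15A, the inducible partner, known as GADD34, had 48.7 ± 2.48 CPM in p21, 89.4 ± 4.63 CPM in p16 with Torin2, 34.0 ± 1.33 CPM in p16 and 39.0 ± 2.43 CPM in mVenus (SD, n = 3 each) and was 2.63-fold higher with Torin2 than in p16 (change 1.39 ± 0.06 log2, adjusted p = 3.00e-14). EIF2AK2 (-0.96 ± 0.07) and EIF2AK3, the endoplasmic reticulum kinase PERK (-0.79 ± 0.07), fell. GCN2 itself, EIF2AK4, differed by little (0.21 ± 0.04 in p21 and -0.12 ± 0.04 in p16 relative to mVenus).

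Other partners and targets of ATF4 were tested for 22 of 27 listed genes. In p21 relative to mVenus 12 rose and 3 fell (68.2%, against 56.4% of all genes), with a median log2 fold change of 0.18. GDF15, a secreted stress cytokine (change 1.85 ± 0.10 log2, adjusted p = 3.07e-12), and DDIT3, which encodes CHOP (change 1.79 ± 0.10 log2, adjusted p = 5.03e-12), rose the most, though 39.6% of the exonic bases of DDIT3 are shared with MARS. The histone demethylase KDM7A (-0.67 ± 0.08) and XPOT, which exports transfer RNA from the nucleus (-0.22 ± 0.04), fell. In p16 relative to mVenus 10 rose and 8 fell (81.8%, against 63.7%), led by the glycine transporter SLC6A9 (1.64 ± 0.07) upward and the neutral amino acid transporter SLC1A4 (-1.66 ± 0.13) and the repressor JDP2 (-0.94 ± 0.10) downward. SLC1A4 was 3.97-fold higher in p21 than in p16 (change 1.99 ± 0.13 log2, adjusted p = 4.14e-11). With Torin2 relative to p16, 12 rose and 8 fell (90.9%, against 59.3%). EIF4EBP1, whose product 4E-BP1 blocks translation initiation until mTORC1 phosphorylates it, rose (change 0.86 ± 0.08 log2, adjusted p = 1.93e-08) with TRIB1 (0.68 ± 0.06), while SLC6A9 (change -2.17 ± 0.08 log2, adjusted p = 2.43e-15) and GDF15 (-0.96 ± 0.13) fell.

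Most of the tested mitochondrial synthetases, which charge the transfer RNA of the organelle, rose with Torin2. Of 15 tested, 11 rose and 2 fell relative to p16 (median log2 fold change 0.23), where 30.3% of all genes rose and 29.0% fell. They were led by WARS2 (change 0.66 ± 0.06 log2, adjusted p = 1.43e-08), with MARS2 (-0.28 ± 0.10) and LARS2 (-0.13 ± 0.05) lower. Relative to mVenus 5 rose and 4 fell in p21 (9 of 15 called, against 56.4% of all genes), 12 rose and 2 fell with Torin2 (93.3%, against 67.4%), and 6 rose and 3 fell in p16 (again 9 of 15, against 63.7%). WARS2 and WARS thus moved in opposite directions with Torin2. The phenylalanyl synthetase subunits FARSA and FARSB and the complex scaffolds AIMP1, AIMP2 and EEF1E1 were also tested. Relative to mVenus they differed by at most 0.39 on the log2 scale. In p21 relative to p16, 4 of the 5 were lower, from -0.26 ± 0.08 in AIMP2 to -0.18 ± 0.04 in FARSA. Of all genes, 27.2% were lower in that comparison.

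Neighbouring amino acid and folate enzymes were tested for 17 of 22 listed genes. GLDC, the glycine decarboxylase that feeds one-carbon units from glycine, had 0.420 ± 0.102 CPM in p21, 5.27 ± 0.572 CPM in p16 with Torin2, 15.3 ± 1.78 CPM in p16 and 1.20 ± 0.142 CPM in mVenus (SD, n = 3 each). It was 12.6-fold higher in p16 than in mVenus (change 3.65 ± 0.15 log2, adjusted p = 2.61e-14) and 2.90-fold lower in p16 with Torin2 than in p16 (change -1.54 ± 0.12 log2, adjusted p = 1.03e-09), so that in p16 it lay opposite to PHGDH. MTHFD2L, a paralogue of MTHFD2, also rose in p16 (1.34 ± 0.08). The thymidylate synthase gene TYMS, which cells use for DNA synthesis, fell the most in p16 (-4.03 ± 0.19), and it fell in p21 as well (-2.80 ± 0.16). ASS1, for argininosuccinate, and GLUL, which makes glutamine, led the rises in p21 (1.07 ± 0.04 and 1.04 ± 0.03). Relative to mVenus 5 rose and 7 fell in p21 (70.6%, against 56.4% of all genes), and 7 rose and 6 fell in p16 (76.5%, against 63.7%). With Torin2 relative to p16, 4 rose and 10 fell (82.4%, against 59.3%), TYMS (1.22 ± 0.26) rising the most and GLDC and ASS1 (-0.88 ± 0.04) falling the most.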

How the data were processed

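Poly(A) RNA of 12 MCF10-A cultures was made into stranded libraries, per the labels' protocols. The deposited files hold raw counts per gene name. Per the file headers the authors counted with featureCounts 1.6.3 over GENCODE 29, with no option for strand, multimapping reads or read pairs, so reads over several genes or places were not counted and antisense genes cannot be told apart. The submitters' processing notes name HISAT2, Subread, FastQC 0.11.3, DESeq2 and the build GRCh38.p7. The authors' 3 tables of comparisons were not used.

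Genes were filtered with filterByExpr (minimum count 10) and scaled by TMM, and 14504 were tested by edgeR 4.0.16 (quasi-likelihood, R 4.3.3). The 4 groups were estimated together from all 12 libraries, which left 8 residual degrees of freedom at a common biological coefficient of variation of 3.94%. Tests were two-sided and p-values adjusted by Benjamini-Hochberg over all genes, with 0.05 as threshold. Replicates differed beyond counting error (chi-square divided by its degrees of freedom 1.65 to 6.40), so each was kept as a sample of its own. Nothing in the labels says that replicates came from separate thaws or days, so p-values measure the spread between these cultures. Changes are log2 fold changes ± standard error, which was worked back from the F statistic of the test and can be too small at low counts. Genes shown by library were ATF4 and, per role and comparison, up to the 3 called genes with the largest change. Other lists gave at most 2 rises and 2 falls, and some items of these lists and sequences are not reported here. Genes and lists were chosen with earlier results of these data known. The code was tested on simulated data. As alternatives, scaling used DESeq2 size factors or the upper quartile, the filter was dropped, DESeq2 1.42.0 replaced edgeR, the fit held just the 6 libraries of a comparison or a replicate block, and each library was left out in turn; for the counts, genes with over 30% shared exonic bases were dropped or a 1.5-fold change was required. Promoter sequences are RefSeq windows of 300 bases (GRCh38.p14), matched by symbol or synonym, in Python 3.11.15. Where several windows of a gene were given, any match counted.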

Additional observations from a re-analysis of the deposited data

How the results depend on the processing

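No gene changed direction among the values past the threshold. Over 170 gene results and up to 18 alternatives each, 3059 values were recomputed: 2949 kept direction and side of the threshold, 85 lost the call, 25 gained it, 0 were reversed, and 41 changed sign with neither value past the threshold. With a 1.5-fold change required as well, 8 genes were higher and 0 lower in p21 against mVenus, 2 and 3 in p16 against mVenus, 1 and 3 in p16 with Torin2 against p16, 2 and 8 in p16 with Torin2 against mVenus, and 8 and 0 in p21 against p16. With no filter on low counts, 3 genes in place of 7 were lower in p21 against mVenus. Leaving out 1 library at a time gave 16 to 18 higher and 6 to 7 lower in p21 and 9 to 10 and 12 to 14 in p16 against mVenus, 9 to 10 and 13 to 14 with Torin2 against p16, 12 to 14 and 18 to 19 with Torin2 against mVenus, and 17 to 19 and 8 to 9 in p21 against p16. Other scalings moved the median of all genes by less than 0.1 on the log2 scale.

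The replicate block gave 17 higher and 7 lower in p21 and 10 and 14 in p16 against mVenus, 10 and 14 with Torin2 against p16, 13 and 19 with Torin2 against mVenus, and 17 and 9 in p21 against p16, where PYCR1 and EPRS lost their calls. Replicate numbers did not pair the libraries: deviations of same-numbered libraries had r of -0.08 to 0.08 over 18 pairs, and 5 of 12 libraries correlated best with their own number.

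Counts are transcript abundances and say nothing of protein, eIF2 phosphorylation or charging. Low counts limit CARS, VLDLR, PYCR1 and PHGDH in p16, and CARS changed sign without p21 replicate 2 in p21 against mVenus (-0.21, against 0.18 with it) and against p16 (-0.17, against 0.22 with it).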
